A study of Mus musculus with 6 samples.

Results

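The 10 genes described here encode the brakes and the motor of the first gap phase of the cell cycle: the CIP/KIP inhibitors Cdkn1a, Cdkn1b and Cdkn1c, the INK4 inhibitors Cdkn2c and Cdkn2d, the D cyclins Ccnd1, Ccnd2 and Ccnd3, and their kinases Cdk4 and Cdk6. They were chosen by name, and all 10 were found among the 57180 genes of the deposited count table. The RNA came from macrophages of wild-type mice, bone marrow-derived and grown from the femurs and tibias of mice aged 6 to 8 weeks in M-CSF at 20 ng/mL for 7 days. Cultures were then treated for 24 h with IL-4 and CGRP together (IL-4+CGRP, 3 libraries) or with IL-4 alone (IL-4, 3 libraries), with IL-4 at 20 ng/mL. The labels leave the CGRP dose unclear, so it is not given. Every culture had M-CSF and IL-4, so the values describe CGRP added to cytokine-treated cells. Nothing in the labels states that replicates were separate animals or cultures, and the p-values therefore measure the spread between these libraries, which may be technical.

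M-CSF is the main growth factor of macrophages in culture, IL-4 drives their alternative activation, and CGRP is a peptide of sensory nerves that acts through a receptor coupled to cyclic AMP. Growth factor signals raise the D cyclins, which bind CDK4 or CDK6 and start the phosphorylation of the retinoblastoma protein, after which E2F factors turn on genes for DNA synthesis. INK4 proteins bind CDK4 and CDK6 and keep the D cyclins off. CIP/KIP proteins bind cyclin and kinase together; they block the complexes that contain CDK2, and they also help D cyclins assemble with their kinases. Macrophages largely leave the cycle as they mature, and p21, the product of Cdkn1a, is known to be induced as they do so.

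Total counts ran from 20088895 to 24060444 per library, and 13260 genes were tested. IL-4+CGRP replicate 2 stood apart from its group. On the first principal component its score was -0.17. IL-4+CGRP replicates 1 and 3 scored 21.98 and 27.05, the IL-4 libraries -25.97 to -11.22. Results are therefore also given without IL-4+CGRP replicate 2. Of its group that library lay nearest to IL-4 on this component, so leaving it out tends to widen the group difference. Over all genes, calls went from 511 to 1865 without it. Stronger values at that setting are therefore not separate support. Macrophage markers were present at high level: all 8 were tested, and they summed to 13839 to 14106 CPM in IL-4+CGRP libraries and 13625 to 13852 CPM in IL-4 libraries, where CPM is counts scaled to library size, per 1000000. Of these, Cd14, a lipopolysaccharide co-receptor, and Itgam, an integrin chain, were higher, with log2 fold changes of 0.61 ± 0.07 and 0.41 ± 0.05 (SE; edgeR adjusted p = 0.00059 and adjusted p = 0.0012), and the other 6 were not called. Among markers of other cells, the 8 dendritic cell genes summed to 90.6 to 98.0 CPM in IL-4+CGRP and 171 to 179 CPM in IL-4. None was at 0 in every library. Of the 7 tested, 3 had positive and 4 negative log2 fold changes, with a median of -0.10, so the markers did not fall together. Over all tested genes, 3.85% were called. Itgax (log2 fold change -1.24, edgeR adjusted p = 1.3e-06) and Siglech (-1.64, adjusted p = 0.022) were lower. Ccr7 was higher (0.47, edgeR adjusted p = 0.0068). Whether the lower sum means fewer dendritic cells was not tested. The Siglech call ended without IL-4+CGRP replicate 1 (edgeR adjusted p = 0.099), IL-4 replicate 2 (0.11) or IL-4 replicate 3 (0.13), and the Ccr7 call without IL-4 replicate 2 (0.051). The 7 stromal genes summed to 48.9 to 55.0 CPM in IL-4+CGRP and 43.6 to 47.4 CPM in IL-4, and the 6 mast cell and basophil genes to 11.5 to 13.6 CPM in IL-4+CGRP and 15.1 to 16.4 CPM in IL-4. No stromal or mast cell marker was called, and none was at 0 in every library. The stromal collagen gene Col3a1 (log2 fold change 0.73; edgeR adjusted p = 0.11) was called higher without IL-4+CGRP replicate 2 (0.90; adjusted p = 0.0066), without that library and IL-4 replicate 1 (0.80; adjusted p = 0.01) and with no count filter (0.72; adjusted p = 0.022). Summed levels of the 8 neutrophil genes (Ly6g at 0 in every library), the 7 lymphocyte genes and the 7 erythroid and progenitor genes (Hbb-bs at 0 in every library) overlapped between the groups, and 0 of them were called. Their part in the results below was not tested.

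The promoters of Cdkn1a and Cdk4 are shown because they belong to the inhibitor with the highest level per length of RNA and to a kinase that, with Ccnd1, has the highest level of the cyclins and kinases. RefSeq promoter windows, from 250 bases before to 50 bases after a start site, were matched by symbol for 7 of the 10 genes. Cdkn1c, Ccnd1 and Ccnd2 had no entry. The Cdkn1a window is chr17:29093519-29093818 on the plus strand, the downstream of its 2 listed start sites, and the Cdk4 window is chr10:127063285-127063584 on the plus strand, both in build GRCm38.p6. Capitals mark GGGCGG (the GC box, CCGCCC where it lies on the other strand) and CACGTG (the E-box).
Cdkn1a: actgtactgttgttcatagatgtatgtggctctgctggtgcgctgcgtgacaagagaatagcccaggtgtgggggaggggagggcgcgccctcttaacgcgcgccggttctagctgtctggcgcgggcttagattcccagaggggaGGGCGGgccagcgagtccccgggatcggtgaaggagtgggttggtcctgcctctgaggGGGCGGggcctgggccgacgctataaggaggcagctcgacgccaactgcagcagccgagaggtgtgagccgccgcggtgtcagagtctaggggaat
Cdk4: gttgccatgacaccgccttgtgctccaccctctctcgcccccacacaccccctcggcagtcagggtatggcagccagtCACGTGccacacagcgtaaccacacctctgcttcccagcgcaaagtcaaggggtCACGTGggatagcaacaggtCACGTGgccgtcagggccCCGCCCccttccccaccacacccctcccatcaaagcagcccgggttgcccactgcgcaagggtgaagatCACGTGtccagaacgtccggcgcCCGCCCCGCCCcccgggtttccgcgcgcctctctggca

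The Cdkn1a window holds 2 GC boxes and no E-box. The Cdk4 window holds 4 E-boxes, the motif of Myc and Mxd proteins, and 3 GC boxes, of which 2 overlap. Of all 32851 windows in the table, 7.15% hold CACGTG and 35.7% hold GGGCGG. The other motifs searched on both strands were TGACGTCA, the cyclic AMP response element (1.79% of windows), its core TGACG (20.8%, including those within the full element), GTAAACA for FoxO (3.65%), TTTGGCGC (0.514%) and TTTCGCGC (0.323%) for E2F, TTCNNNGAA for STAT factors (8.3%) and TATAAA (13.6%). TGACGTCA was in 0 of the 10 windows of these genes. Its core was in 5 of them, 1 each for Cdk4, Cdk6 and Cdkn1b and both windows of Ccnd3. These matches describe letters in the windows and show no binding.

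Of the 10 genes, Cdkn1c and Ccnd1 were lower in IL-4+CGRP, and 0 were higher. Cdkn1c, which encodes the inhibitor p57, was 2.45-fold lower, and Ccnd1, which encodes cyclin D1, was 1.29-fold lower. All 10 passed the filter on low counts. The share of genes called in either direction was 3.85% of all 13260 tested, with 2.32% called higher and 1.54% called lower. The 2 genes that were called were also the 2 whose groups did not overlap in CPM, against 21% of all tested genes. At an unadjusted p under 0.05 the edgeR test passed 3 of the 10, the third being Cdkn1a. The share of all tested genes passing at that unadjusted p was not computed, so such counts here and below have no background. DESeq2 and limma-voom also called 0 of the 10 higher and 2 lower. Over all 13260 genes tested DESeq2 called 460 and limma-voom 430, the background for their list counts below as well. The median absolute log2 fold change was 0.14 for the 10 genes and 0.11 for all tested genes. Without IL-4+CGRP replicate 2, 3 of the 10 were called lower and 0 higher, where 13.8% of the 13492 genes tested were called, 6.78% higher and 7.04% lower. In bulk RNA, fewer cells that express a gene and less of its RNA per cell cannot be told apart.

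**Figure D1:**
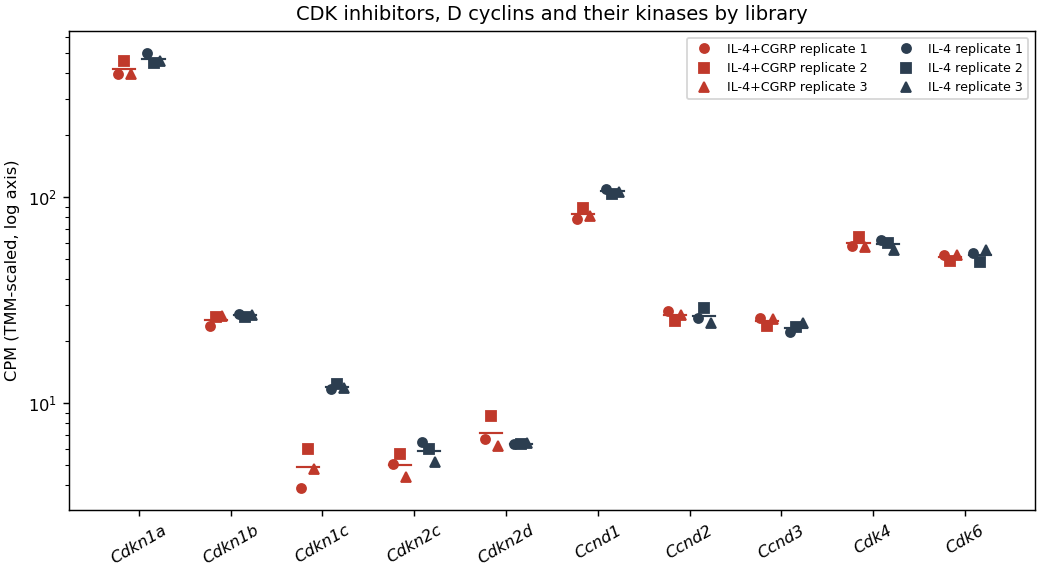
CPM of each gene in the 6 libraries on a log axis, with IL-4+CGRP in red to the left of IL-4 in dark blue; symbols mark replicates 1 to 3 and short lines the group means. Cdkn1c and Ccnd1 lay lower in all 3 IL-4+CGRP libraries than in any IL-4 library, and the groups overlapped for the other 8 genes.

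The CIP/KIP inhibitors differed widely in level and in how they differed between the groups. Cdkn1c is expressed from the maternal copy in mouse and is best known for holding stem cells and differentiating tissues out of the cycle. Listed as ENSMUSG00000037664, it had 94, 131 and 107 counts in IL-4+CGRP replicates 1 to 3, against 231, 265 and 285 counts in IL-4 replicates 1 to 3. Scaled to library size, these were 3.88, 6.02 and 4.82 CPM in IL-4+CGRP and 11.7, 12.4 and 11.9 CPM in IL-4. Every IL-4+CGRP library lay below every IL-4 library, and IL-4+CGRP replicate 2 lay closest to the IL-4 libraries. The means were 4.90 ± 1.07 CPM in IL-4+CGRP and 12 ± 0.388 CPM in IL-4 (SD, n = 3 each), so the coefficient of variation was 21.8% in IL-4+CGRP and 3.23% in IL-4. The log2 fold change was -1.30 ± 0.14 (SE; 95% interval -1.61 to -0.98), with an edgeR adjusted p = 0.00035. By p-value Cdkn1c ranked 49 of the 13260 genes tested.

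Without IL-4+CGRP replicate 2 the log2 fold change of Cdkn1c was -1.47 (edgeR adjusted p = 1.2e-06). With all 6 libraries, the 95% interval of Cdkn1c lay below those of the other 9 genes, of which the lowest bound was -0.53, for Cdkn2c. The GENCODE M21 annotation places 1 gene on the opposite strand of Cdkn1c, Gm44732, which had 0 counts in every library; with a limit of 3 counts this allows up to 0.149 CPM before scaling in the shallowest library.

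Cdkn1a encodes p21, the target of p53 that arrests the cycle after DNA damage and is also induced during macrophage differentiation. It was the most abundant of the 10 genes, with 398, 456 and 396 CPM in IL-4+CGRP against 500.4, 447 and 459 CPM in IL-4. The groups overlapped, since IL-4+CGRP replicate 2 lay above IL-4 replicate 2. The log2 fold change was -0.17 ± 0.06 (SE; 95% interval -0.31 to -0.03) with an edgeR adjusted p = 0.22, so Cdkn1a was not called. Without IL-4+CGRP replicate 2 it was -0.24 (edgeR adjusted p = 0.0026), and it was -0.19 (edgeR adjusted p = 0.00021) without both that library and IL-4 replicate 1. Cdkn1a also passed with no count filter (edgeR adjusted p = 0.036) and with the gene length trend removed (log2 fold change -0.13; edgeR adjusted p = 0.048). Over all alternatives its adjusted p ran from 0.00021 to 0.55.

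Dino, a non-coding RNA that p53 induces, lies across Cdkn1a on the opposite strand in the annotation. It had 3.14, 3.81 and 3.42 CPM in IL-4+CGRP and 3.64, 2.77 and 3.75 CPM in IL-4. Its log2 fold change was 0.03 ± 0.17 (SE; edgeR adjusted p = 0.96). In every library Dino lay far below Cdkn1a.

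Cdkn1b encodes p27, which accumulates in resting cells and is destroyed when growth factors act. It measured 23.7, 26.3 and 26.4 CPM in IL-4+CGRP and 27, 26.2 and 26.9 CPM in IL-4. These values overlapped, with a log2 fold change of -0.07 (95% interval -0.23 to 0.09; edgeR adjusted p = 0.7). The interval reaches no further than a 1.07-fold higher level in IL-4+CGRP, or 0.853 times the IL-4 level.

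**Figure D2:**
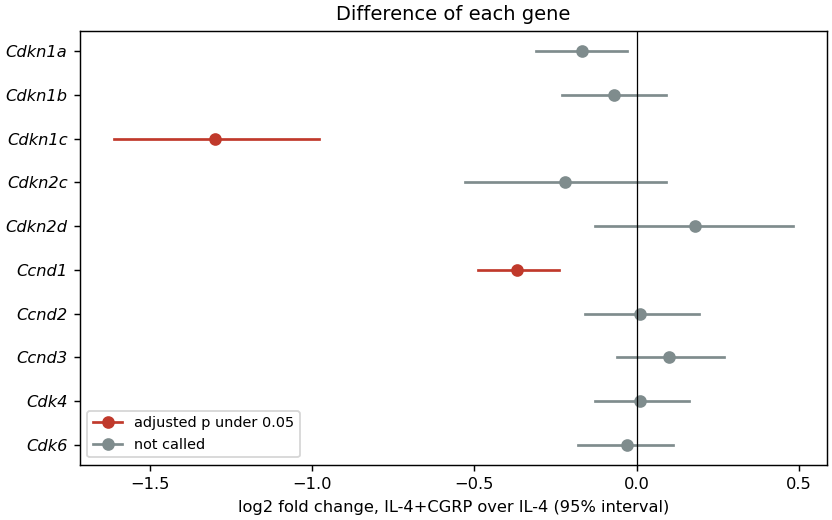
Log2 fold change of each gene, IL-4+CGRP over IL-4, as points with 95% intervals from the edgeR fit; red marks an adjusted p under 0.05. Cdkn1c lies at -1.30 and Ccnd1 at -0.37, and the intervals of 7 of the other 8 genes cross 0, Cdkn1a at -0.31 to -0.03 being the exception.

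Per kilobase of the gene length given in the deposited table, Cdkn1a made up nearly all of the CIP/KIP level. It accounted for 96.4% ± 0.253 of the sum in IL-4+CGRP and 95.9% ± 0.225 in IL-4 (SD, n = 3 each). The share of Cdkn1c was 0.551% ± 0.0833 in IL-4+CGRP and 1.2% ± 0.103 in IL-4, and the 2 sets of libraries did not overlap in it. The summed CIP/KIP level was 448, 513 and 447 CPM per kilobase in IL-4+CGRP and 564, 506 and 519 CPM per kilobase in IL-4, and these overlapped. The table gives Cdkn1a a length of 922 bases, against 3553 bases for all its GENCODE exons merged. With merged exon lengths the share of Cdkn1c was 1.91% in IL-4+CGRP and 4.11% in IL-4.

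The INK4 inhibitors were scarce. Cdkn2c, which encodes p18, measured 5.08, 5.65 and 4.41 CPM in IL-4+CGRP and 6.48, 6.01 and 5.17 CPM in IL-4. Cdkn2d, which encodes p19 of the INK4 family, measured 6.68, 8.68 and 6.22 CPM in IL-4+CGRP and 6.33, 6.34 and 6.42 CPM in IL-4. The groups overlapped for both genes, and IL-4+CGRP replicate 2 was the highest library for Cdkn2d. Without that library the Cdkn2d log2 fold change was 0.02 (edgeR adjusted p = 0.94). Neither passed the edgeR test, with log2 fold changes of -0.22 (95% interval -0.53 to 0.09; adjusted p = 0.51) and 0.18 (95% interval -0.13 to 0.48; adjusted p = 0.6). The other INK4 genes were too low to be tested: Cdkn2a, which encodes p16 and ARF, had 0, 6 and 2 counts in IL-4+CGRP and 4, 4 and 12 in IL-4. Cdkn2b, the p15 gene, had 5, 11 and 7 counts in IL-4+CGRP and 4, 9 and 7 in IL-4.

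Among the D cyclins, Ccnd1 fell while Ccnd2 and Ccnd3 did not pass the test. Ccnd1 is the D cyclin that responds most directly to growth factor and MAP kinase signals, and it had the highest CPM of the 3. Listed as ENSMUSG00000070348, it measured 78.7, 88.3 and 81.5 CPM in IL-4+CGRP, against 110, 104 and 106 CPM in IL-4. The groups did not overlap, and IL-4+CGRP replicate 2 was again the nearest to IL-4. The means were 82.9 ± 4.96 CPM in IL-4+CGRP and 107 ± 2.94 CPM in IL-4 (SD, n = 3 each). The log2 fold change was -0.37 ± 0.06 (SE; 95% interval -0.49 to -0.24), with an edgeR adjusted p = 0.004, or -0.42 (edgeR adjusted p = 4.1e-05) without IL-4+CGRP replicate 2. LTO1, which overlaps Ccnd1 on the opposite strand, averaged 39.9 CPM in IL-4+CGRP and 39.4 CPM in IL-4 (log2 fold change 0.02 ± 0.08, SE; edgeR adjusted p = 0.92).

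Ccnd2, which in other cells responds to cytokines and FoxO factors, measured 28.1, 25.2 and 26.8 CPM in IL-4+CGRP and 26.0, 28.9 and 24.6 CPM in IL-4. Its log2 fold change was 0.01 (95% interval -0.16 to 0.19; edgeR adjusted p = 0.95). Ccnd3, the D cyclin of many maturing blood cells, measured 25.8, 23.7 and 25.6 CPM in IL-4+CGRP and 22.1, 23.4 and 24.4 CPM in IL-4. The groups overlapped for Ccnd3 through IL-4+CGRP replicate 2 and IL-4 replicate 3, and the log2 fold change was 0.10 (95% interval -0.06 to 0.27; edgeR adjusted p = 0.57). The Ccnd1 interval lay below those of Ccnd2 and Ccnd3; the difference between the genes was not tested.

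Counted per kilobase, the D cyclin sum was 38.4, 39.5 and 38.9 in IL-4+CGRP and 44.6, 44.1 and 44.6 in IL-4, a ratio of 0.876. Ccnd1 held 54.8%, 59.9% and 56.1% of that sum in IL-4+CGRP and 66.0%, 63.1% and 63.8% in IL-4. The share of Ccnd3 was 33.6%, 30% and 33.0% in IL-4+CGRP and 24.8%, 26.5% and 27.4% in IL-4, and that of Ccnd2 was 10.9% ± 0.735 in IL-4+CGRP and 9.42% ± 0.820 in IL-4 (SD, n = 3 each). The shares of Ccnd1 and Ccnd3 did not overlap between the groups, those of Ccnd2 did. Shares of a sum are not independent, since a lower Ccnd1 raises the shares of the others. Ccnd3 itself was not called, and its CPM overlapped between the groups. These shares depend on the lengths used. With merged exons Ccnd1 held 75.5% in IL-4+CGRP and 80.6% in IL-4, Ccnd3 held 12.3% in IL-4+CGRP and 9.44% in IL-4, and Ccnd2 held 12.2% in IL-4+CGRP and 10% in IL-4.

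**Figure D3:**
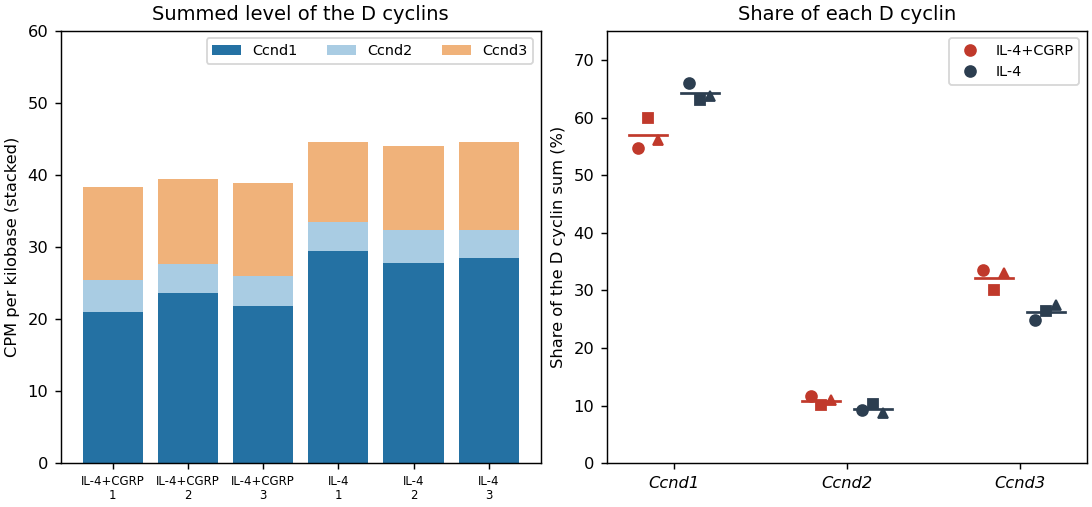
Left, the stacked CPM per kilobase of the 3 D cyclins in each library, IL-4+CGRP left of IL-4; right, the share of each gene in that sum, with symbols for replicates 1 to 3 and lines for group means. The sum was 38.4 to 39.5 in IL-4+CGRP and 44.1 to 44.6 in IL-4, and the Ccnd1 share was 54.8% to 59.9% in IL-4+CGRP and 63.1% to 66.0% in IL-4.

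Neither kinase passed the test. Cdk4 measured 58.0, 64.2 and 57.3 CPM in IL-4+CGRP and 62.2, 60.1 and 55.6 CPM in IL-4, with a log2 fold change of 0.01 (95% interval -0.13 to 0.16; edgeR adjusted p = 0.95). Cdk6 measured 52.4, 48.9 and 52.3 CPM in IL-4+CGRP and 53.4, 48.7 and 55.3 CPM in IL-4, with a log2 fold change of -0.03 (95% interval -0.18 to 0.11; edgeR adjusted p = 0.84). Both sets of values overlapped. The intervals leave room for levels in IL-4+CGRP from 0.913 to 1.11 times the IL-4 level for Cdk4, and from 0.885 to 1.08 times for Cdk6. Tspan31, which lies on the opposite strand at Cdk4, averaged 79.2 CPM in IL-4+CGRP and 83.1 CPM in IL-4 (edgeR adjusted p = 0.63), and Bysl, opposite Ccnd3, 20.9 CPM in IL-4+CGRP and 21.2 CPM in IL-4 (edgeR adjusted p = 0.94). The library kit keeps strand, but whether counting used it is not given, so reads of such pairs may not be separated. The other overlapping genes, on the opposite strand at Ccnd2 and Cdk6, had mean CPM of at most 0.0982 in either group.

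Ordered by CPM per kilobase in IL-4+CGRP, the 10 genes ran from Cdkn1a (452) through Cdk4 (29.1), Ccnd1 (22.2), Cdk6 (20.7), Cdkn1b (14.5), Ccnd3 (12.5), Cdkn2d (5.06), Cdkn2c (4.56) and Ccnd2 (4.22) to Cdkn1c (2.60). In IL-4 the values were 508 for Cdkn1a, 28.9 for Cdk4, 28.6 for Ccnd1, 21.2 for Cdk6, 15.2 for Cdkn1b, 11.7 for Ccnd3, 6.36 for Cdkn1c, 5.32 for Cdkn2c, 4.47 for Cdkn2d and 4.18 for Ccnd2. By these lengths Cdkn1c was the lowest of the 10 in IL-4+CGRP and the seventh in IL-4. In IL-4+CGRP the mean ± SD ranges overlapped for Ccnd1 and Cdk6, and among Cdkn2d, Cdkn2c and Ccnd2. In IL-4 they overlapped for Cdk4 and Ccnd1, and for Cdkn2d and Ccnd2. The ranges of the other neighbours did not overlap. The order depends on the lengths used: with merged exons Cdk6 was at 3.66 CPM per kilobase in IL-4+CGRP and 3.75 in IL-4, below Cdkn1b at 5.59 in IL-4+CGRP and 5.87 in IL-4. By merged exons Cdkn2c was the lowest in IL-4+CGRP, at 1.88 against 2.41 for Cdkn1c. Cdkn1c was the fourth in IL-4, at 5.89 against 5.87 for Cdkn1b. No SD was computed for levels by merged exons, so these close ranks are not resolved. Merged exons also put Ccnd1 (22.7) above Cdk4 (18.3) in IL-4.

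No cyclin or kinase listed as acting after the D cyclins passed the test, while 3.85% of all tested genes did. Of 7 tested genes of the E, A and B cyclins and their kinases 0 were called, with 5 negative and 2 positive log2 fold changes and a median of -0.20, against 0.00 for all tested genes. Ccnb1, the mitotic cyclin B1, had the smallest p of them, at 3.53 ± 0.463 CPM in IL-4+CGRP and 4.88 ± 0.645 CPM in IL-4 (SD, n = 3 each; edgeR adjusted p = 0.17). Among 8 tested regulators of CDK activity, which include activating kinase subunits, phosphatases and the inhibitory kinases Wee1 and Pkmyt1, 0 were called, all 8 log2 fold changes were negative and the median was -0.16. Wee1, a kinase that holds CDK1 inactive, led that list at 12.4 ± 0.843 CPM in IL-4+CGRP and 15.7 ± 1.09 CPM in IL-4 (SD, n = 3 each; edgeR adjusted p = 0.083). At an unadjusted p under 0.05, edgeR passed 1 of the 7 and 2 of the 8, and DESeq2 and limma-voom called 0 in either list. Without IL-4+CGRP replicate 2, 2 of the CDK activation genes were called lower, where 7.04% of all genes were.

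The retinoblastoma family and E2F factors, on which the D cyclin kinases act, had 0 of 13 tested members called, and the median of their log2 fold changes was 0.04. E2f4, the E2F of resting cells, had the smallest p, at 62.3 ± 4.06 CPM in IL-4+CGRP and 54.1 ± 0.695 CPM in IL-4 (SD, n = 3 each; edgeR adjusted p = 0.1). In the DREAM and MuvB list, the complexes that keep cycle genes silent or switch on mitotic ones, 0 of 7 were called, all 7 values were negative and the median was -0.10. Mybl2 had the smallest p there (log2 fold change -0.36 ± 0.22, SE; edgeR adjusted p = 0.46). Genes that degrade cyclins and inhibitors had 0 of 16 called and a median of -0.06, with Cul4b, a ubiquitin ligase scaffold, at -0.18 ± 0.08 (SE; edgeR adjusted p = 0.28). Unadjusted, edgeR passed 2 genes of the retinoblastoma and E2F list, 0 of the DREAM list and 1 of the degradation list at p under 0.05, and DESeq2 and limma-voom called 0 in each. Without IL-4+CGRP replicate 2, 1 gene was called in each of these lists, higher in the first and lower in the others. At that setting 13.8% of all genes were called, against 3.85% with all libraries.

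In the list of DNA replication and S phase genes, which E2F factors control, 1 of 32 tested members was called lower, where 1.54% of all tested genes were. The called member was Pcna, the sliding clamp of DNA polymerase, which fell to 125 ± 3.86 CPM in IL-4+CGRP against 154 ± 4.69 CPM in IL-4 (SD, n = 3 each; edgeR adjusted p = 0.0089). The list had 26 negative and 6 positive log2 fold changes and a median of -0.15. Of 25 tested mitosis genes 1 was called, the spindle motor Kif11, at 6.35 ± 0.570 CPM in IL-4+CGRP and 8.86 ± 0.571 CPM in IL-4 (SD, n = 3 each; edgeR adjusted p = 0.042). Its list had 22 negative values and a median of -0.15, and 1.54% of all tested genes were called lower. Mki67, the gene of the proliferation marker Ki-67 and singled out after its values were seen, had a positive log2 fold change, at 45.1 ± 4.38 CPM in IL-4+CGRP and 39.5 ± 0.395 CPM in IL-4 (SD, n = 3 each; edgeR adjusted p = 0.22). The Pcna call ended without IL-4 replicate 1 (edgeR adjusted p = 0.052) or replicate 3 (0.062). With IL-4+CGRP replicate 2 left out, 3 S phase genes and Kif11 were called lower and 1 mitosis gene higher, against 7.04% of all genes lower and 6.78% higher. The Kif11 call ended without IL-4 replicate 1 (edgeR adjusted p = 0.083), 2 (0.17) or 3 (0.17) or IL-4+CGRP replicate 1 (0.16), and under DESeq2 (0.097), limma-voom (0.056), library totals alone (0.056) and a non-robust dispersion estimate (0.05 after rounding).

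**Figure D4:**
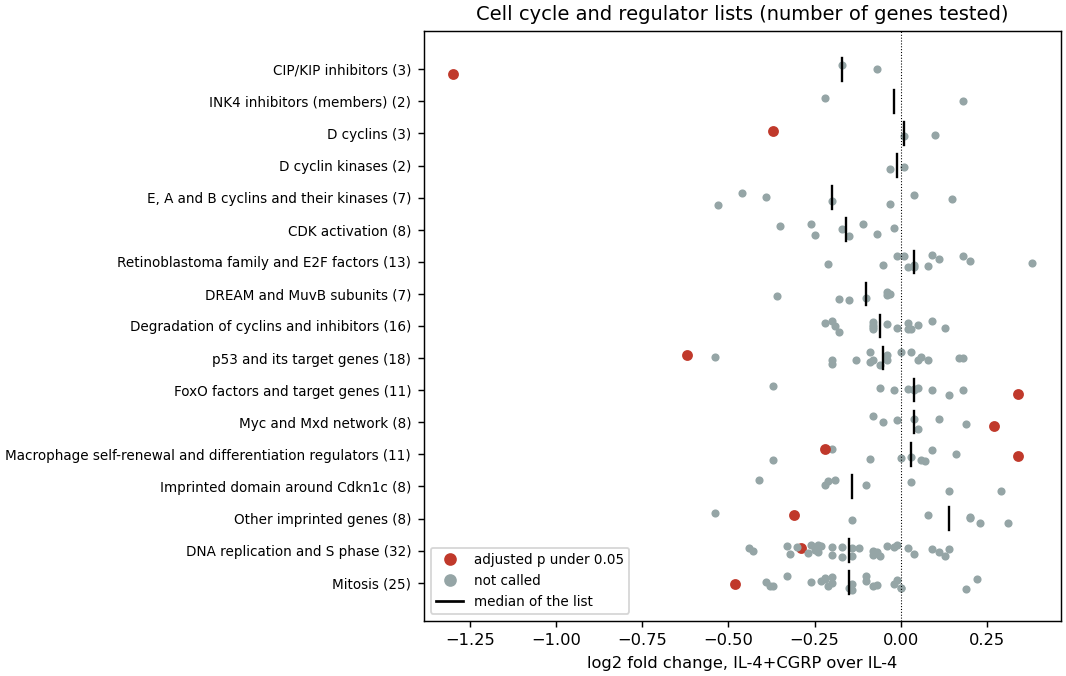
Log2 fold change, IL-4+CGRP over IL-4, of each tested gene in the cell cycle and regulator lists, with called genes in red, other genes in grey and a black bar at the median of the list. Cdkn1c at -1.30 is the lowest value shown, and the medians of the lists run from -0.20 to 0.14.

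Of p53 and its targets, the pathway best known for inducing Cdkn1a, 1 of 18 tested genes was called lower, where 1.54% of all tested genes were. Plk2, a kinase of the polo family, fell to 173, 167 and 175 CPM in IL-4+CGRP, against 256, 270.4 and 267 CPM in IL-4. These groups lay far apart, with a log2 fold change of -0.62 ± 0.05 (SE; edgeR adjusted p = 2.5e-05). The list had a median of -0.05, and without IL-4+CGRP replicate 2 another of its genes was called higher, where 6.78% of all genes were. Trp53 itself and Mdm2, the p53 target that degrades it, both named after their values were seen, had log2 fold changes of -0.04 ± 0.05 and -0.06 ± 0.06 (SE; edgeR adjusted p = 0.78 and adjusted p = 0.67).

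FoxO factors, which raise Cdkn1b in several cell types, and their targets had 1 of 11 tested members called higher, where 2.32% of all tested genes were. Irs2, an adaptor of the insulin and IL-4 receptors, rose to 35.8 ± 0.479 CPM in IL-4+CGRP, against 28.4 ± 3.09 CPM in IL-4 (SD, n = 3 each; edgeR adjusted p = 0.04). The median of the FoxO list was 0.04. In the Myc and Mxd network, 1 of 8 tested genes was called: Mxd1, a partner of Max that opposes Myc, rose to 41.8 ± 1.90 CPM in IL-4+CGRP, against 34.6 ± 1.25 CPM in IL-4 (SD, n = 3 each; edgeR adjusted p = 0.039). In the network, 2 genes were called higher without IL-4+CGRP replicate 2, where 6.78% of all genes were, against 2.32% with all libraries. Myc, named after its values were seen, measured 10.1 ± 0.438 CPM in IL-4+CGRP and 10.7 ± 1.06 CPM in IL-4 (SD, n = 3 each; edgeR adjusted p = 0.77). The Irs2 call ended when IL-4 replicate 1 (edgeR adjusted p = 0.18), IL-4 replicate 3 (0.22), IL-4+CGRP replicate 1 (0.15) or IL-4+CGRP replicate 3 (0.14) was left out, as well as under limma-voom (0.054) and a non-robust dispersion estimate (0.061). The Mxd1 call ended without any one of IL-4 replicates 1 (edgeR adjusted p = 0.091), 2 (0.15) and 3 (0.2) or IL-4+CGRP replicates 1 (0.22) and 3 (0.1), and under DESeq2 (0.079) and limma-voom (0.052).

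Among regulators of macrophage differentiation and self-renewal, 1 of 11 tested genes rose and 1 fell. Of all tested genes, 2.32% were called higher and 1.54% lower. Maf, a transcription factor that restrains macrophage self-renewal, rose to 380 ± 28.0 CPM in IL-4+CGRP, against 301 ± 24.3 CPM in IL-4 (SD, n = 3 each; edgeR adjusted p = 0.02). Egr2, an IL-4 and growth factor response gene, fell to 208 ± 5.83 CPM in IL-4+CGRP, against 243 ± 9.22 CPM in IL-4 (SD, n = 3 each; edgeR adjusted p = 0.029). Among these regulators, 2 were called higher and 2 lower without IL-4+CGRP replicate 2, where 6.78% of all genes were higher and 7.04% lower. Csf1r, the M-CSF receptor and singled out after its values were seen, had a log2 fold change of 0.09 ± 0.04 (SE; edgeR adjusted p = 0.28). The Maf call ended without IL-4 replicate 2 (edgeR adjusted p = 0.13) or 3 (0.12) or IL-4+CGRP replicate 3 (0.07), and with the length trend removed (0.055). The Egr2 call ended when IL-4 replicate 2 (edgeR adjusted p = 0.16), IL-4 replicate 3 (0.16), IL-4+CGRP replicate 1 (0.13) or IL-4+CGRP replicate 3 (0.058) was left out, and with library totals alone (0.071).

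Cdkn1c lies in an imprinted domain whose silent copy is covered by the non-coding RNA Kcnq1ot1. Of the 13 listed genes of that domain, which leave out Cdkn1c itself, 8 were tested and 0 were called. Their log2 fold changes ran from -0.41 to 0.29, with -0.14 as the median. Kcnq1ot1 had the highest of these, at 10.2, 10.4 and 12.1 CPM in IL-4+CGRP and 9.82, 7.74 and 9.22 CPM in IL-4 (log2 fold change 0.29 ± 0.12, SE; edgeR adjusted p = 0.25). Its groups did not overlap, and its unadjusted p was 0.031. The listed Kcnq1ot1 length is 93092 bases, and with the gene length trend removed its log2 fold change was 0.04 (edgeR adjusted p = 0.89). Without IL-4+CGRP replicate 2 and IL-4 replicate 1 it was 0.39 (edgeR adjusted p = 0.038). Unadjusted, 1 of the 8 passed edgeR at p under 0.05, and DESeq2 and limma-voom called 0. Leaving out 1 library gave 1 called lower, without IL-4+CGRP replicate 2, where 7.04% of all genes were. Phlda2, another imprinted gene of the domain, had 0 counts in every library. Of imprinted genes elsewhere, 1 of 8 tested was called, Gnas, the stimulatory G protein subunit, which fell to 477 ± 8.73 CPM in IL-4+CGRP, against 590.2 ± 16 CPM in IL-4 (SD, n = 3 each; edgeR adjusted p = 0.0017). The median of that list was 0.14. Of all tested genes, 3.85% were called in either direction and 1.54% lower.

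The Cdkn1c and Ccnd1 calls held in each of the 17 alternatives run. The log2 fold change ranged from -1.49 to -1.15 for Cdkn1c and from -0.42 to -0.34 for Ccnd1, and the largest adjusted p was 0.0094 for Cdkn1c and 0.035 for Ccnd1.

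**Figure D5:**
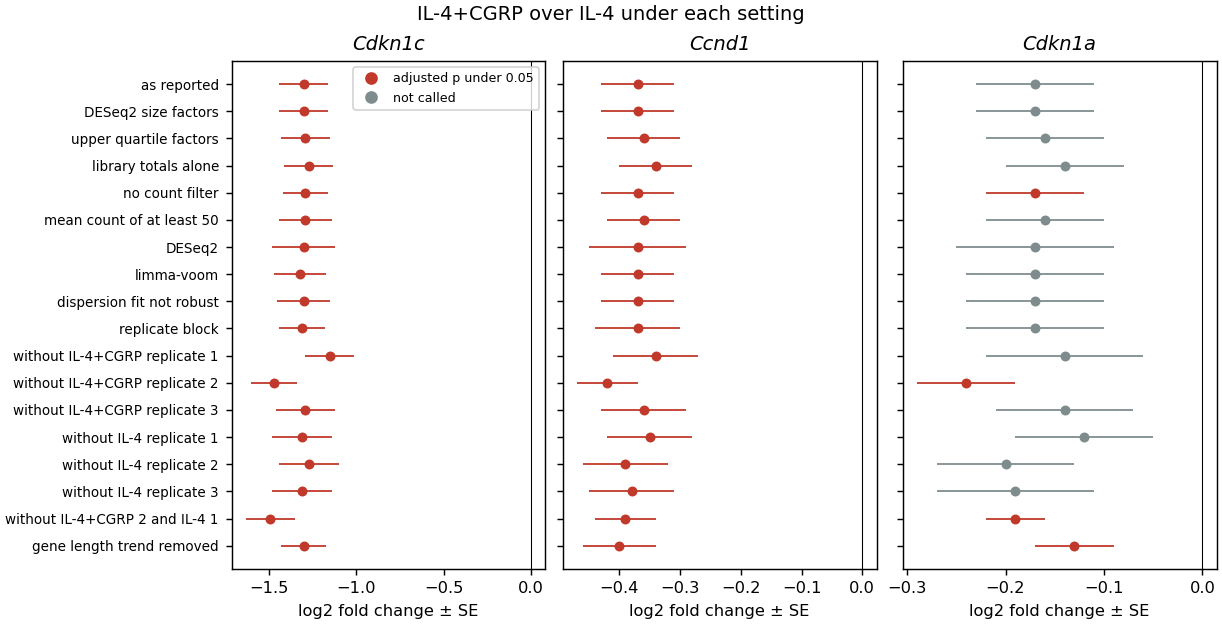
Log2 fold change ± SE of Cdkn1c, Ccnd1 and Cdkn1a, IL-4+CGRP over IL-4, as reported and under each alternative; red points had an adjusted p under 0.05. Cdkn1c and Ccnd1 are red at every setting, and Cdkn1a in 4 of the 17 alternatives.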

How the data were processed

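Expected counts per gene in 6 libraries were deposited by the authors in 1 table with gene lengths; fastp, HISAT2, StringTie and build GRCm39 are named per the submitters' processing notes, with no versions, and libraries were made with a stranded mRNA kit per the labels' protocols. For the counting step and its strand setting, the sources used here give nothing. Between 23.3% and 26.6% of the values above 0 were not whole (tolerance 1e-06), and counts were rounded. edgeR 4.0.16 (R 4.3.3) with TMM factors (0.985 to 1.016), its default filter on low counts and a robust quasi-likelihood F test, two-sided, was fitted to all 6 libraries. P-values were adjusted by Benjamini-Hochberg over 13260 genes, and 0.05 was the threshold. Intervals are 95%. The tests were checked on simulated data.

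CPM was computed as counts per 1000000 of the TMM-scaled total; per-kilobase levels used the deposited lengths or merged GENCODE M21 exons. The 10 genes and all lists were chosen with earlier results of these data known. In each list other than the cell type markers, genes that were called, or else the one with the smallest p, were named; of the markers, those that were called were named, with Col3a1 and any at 0 added after their values were seen; others are said to be chosen after their values were seen. Alternatives tried were scaling by upper quartile, DESeq2 size factors or totals alone, other filters, DESeq2 1.42.0, limma 3.58.1 with voom, a non-robust dispersion estimate, a replicate block and leaving out libraries. Library correlations (Pearson's r) were at least 0.9869 within groups and ran from 0.9822 to 0.9883 between them, so the ranges overlapped. IL-4+CGRP replicate 2 correlated at 0.9876 and 0.9869 with replicates 1 and 3 of its group, and at 0.9882 with IL-4 replicate 1. No pair of libraries of a group agreed within sampling noise (chi-square per degree of freedom 3.01 to 22).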

Additional observations from a re-analysis of the deposited data

How the results depend on the processing

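Cdkn1c and Ccnd1 were called lower, and 0 of the 10 genes higher, in all 17 alternatives. The number of the 10 called lower was 2 to 3 when single libraries were left out. It was 3, with Cdkn1a added, with no count filter, without IL-4+CGRP replicate 2, without that library and IL-4 replicate 1, and with the gene length trend removed; the last, like merged exon lengths, was chosen after seeing the data. Over all genes, 307 were higher and 204 lower, against 584 and 434 with no count filter and 1066 and 1187 without both libraries. Leaving out single libraries gave 140 to 915 higher and 80 to 950 lower, with both highest counts without IL-4+CGRP replicate 2. Removing the length trend gave 517 lower; calls were then 43.6% higher, against 60.1% as reported and 71.2% with library totals alone. The replicate block gave 176 higher and 86 lower and called the same 2 of the 10 genes lower. Under it the calls of Pcna (edgeR adjusted p = 0.059), Kif11 (0.1), Irs2 (0.089), Mxd1 (0.1), Maf (0.12) and Egr2 (0.12) ended. Deviations from the group means, over genes, correlated at -0.19, -0.18 and 0.13 between same-numbered libraries. For 2 of 6 libraries the best match was their own number. With 3 candidates for each library, this cannot decide whether the numbers pair them. Uncalled values near 0 changed sign: leaving out single libraries, Ccnd2 ran from -0.04 to 0.08 (-0.03, -0.001 and -0.04 on omission of IL-4+CGRP replicate 1, IL-4 replicate 1 and IL-4 replicate 3), and it was -0.04 with the length trend removed. Cdk4 ran from -0.04 to 0.05, the lowest on omission of IL-4+CGRP replicate 2 or IL-4 replicate 3, and was -0.004 without both libraries, where Cdk6 was 0.01. The cause was not tested. With 94 to 285 counts per library, Cdkn1c rests on far fewer reads than Ccnd1.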
